A study of Drosophila melanogaster with 30 samples.

Results

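Most RNA in a wing disc comes from annotated genes, but some of the intervals at which the study tested RNA lie between them. Intervals on chromosome arms 2L, 2R, 3L, 3R and X and on chromosome 4 were taken as transcribed intervals outside annotated genes if they shared not even 1 base with a gene of the RefSeq table of Drosophila melanogaster Release 6 (dm6). There were 427 such intervals among 11487 male entries (3.72%) and 302 among 10775 female entries (2.80%). The gene table need not be complete, so an interval outside genes is one outside the genes listed there. Overlapping intervals of either sex were joined, which gave 477 loci. A single interval made up 309 of them.

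RNA outside genes can come from unlisted genes, from transcripts that run past a gene's end, from enhancers and from transposable elements. Pericentromeric blocks, chromosome 4 and chromosome ends are rich in repeats and in heterochromatin, the compact chromatin that keeps much of its DNA silent and late to replicate. Acetylation of lysine 16 of histone H4 opens chromatin; in flies the enzyme Mof places it, most densely on the male X chromosome, as part of the MSL dosage compensation complex that raises transcription of the single male X.

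Wing imaginal discs, the larval tissue that forms the adult wing and part of the thorax, were dissected from wandering third-instar larvae. In H4K16R larvae a transgene of 12 histone repeats of 5 kb made histone H4 with arginine, which cannot be acetylated, in place of lysine 16; in HWT larvae the same transgene carried wild-type histone genes. All of these larvae lacked both copies of the endogenous histone cluster (genotype ΔHisC, UAS-2xEYFP over ΔHisC, twi-GAL4), so the deletion, the twi-GAL4 driver and the EYFP reporter were common to H4K16R and HWT. Each of the 4 RNA groups, males and females of either genotype, had 3 libraries of 30 discs, and Repli-seq had 2 libraries of S-phase DNA and 1 of G1 DNA for every timing group. Timing was also measured in H3K9R females, whose transgene changes lysine 9 of histone H3 to arginine, and in yw females, in which the endogenous histone cluster is intact. The titles name replicates, but not separate crosses or animals, so the p-values measure only the spread between these libraries.

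The authors' deposited RNA tables hold a log2 fold change (read as H4K16R over HWT) and an adjusted p-value per interval, with no value per library, so neither an expression level, a standard deviation nor the depth behind an interval is known. An interval was called at an adjusted p under 0.05. All 8 wing disc genes looked up (vg, nub, sd, ap, wg, en, hh and dpp) had entries in both tables, which shows that the tissue's genes were tested but not at what level. In bulk discs, fewer cells of a type and less RNA per cell cannot be told apart.

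The intervals were short. Their median length was 308 bases in the male table and 324.5 in the female table, and 91.3% and 89.7% were under 1 kb. Entries that overlapped a gene had median lengths of 2540 and 2551 bases. The loci ran up to 60974 bases, and 12 of 477 exceeded 5 kb. Of the 2 longest, one filled most of the tip of X and another stretched 29548 bases along the arm of 2R, with both ends at matching positions in both tables. The nearest listed gene was protein-coding for 326 of 427 male and 236 of 302 female intervals and a long noncoding RNA for 82 and 52. The median distance to it was 3424 bases in the male table and 3985 in the female table. The edge of the rule was sharp: the nearest male members lay 6 and 7 bases from a gene, and in the authors' deposited table had log2 fold changes of 0.90 and 0.06; the male entries with the smallest overlap shared 31 and 40 bases with one and had 0.23 and -0.70. In either sex, 7 further entries overlapped a gene by under 10% of their own length.

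About 1 interval in 3 lay in pericentromeric blocks, whose borders were set at 22 Mb on 2L, 6 Mb on 2R, 23 Mb on 3L, 4 Mb on 3R and 22 Mb on X. These blocks held 139 male intervals (32.6%) and 91 female intervals (30.1%), the arms 270 and 195, and chromosome 4, a small chromosome largely packaged as heterochromatin, 18 and 16. Because more of the pericentromere than of the arms lies outside genes (55.3% against 26.8%), the loci were also counted per megabase (Mb) of sequence outside genes. That density was 15.2 loci in the pericentromere, 10.1 on the arms and 45.8 on chromosome 4, the last from 13 loci in 0.284 Mb. Chromosome 4 aside, it varied more between chromosomes than between pericentromere and arms. Pericentromeric 2R had 22.1 loci per Mb and pericentromeric 2L 20.6, but pericentromeric 3R had 7.98, and the whole X had 4.33. The shares depend on where the blocks are taken to begin.

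**Figure D1:**
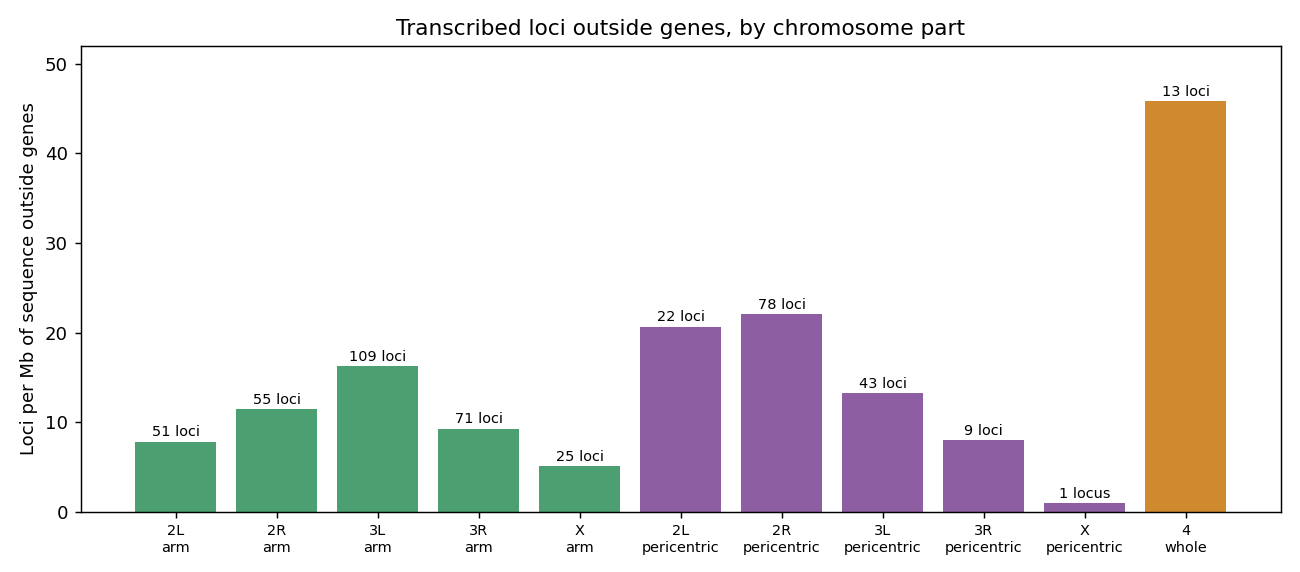
Loci of transcribed intervals outside genes (y axis, loci per Mb of sequence outside genes) for each chromosome part (x axis: arms in green, pericentromeric blocks in purple, chromosome 4 in orange); numbers over the bars count loci. Chromosome 4 stands at 45.8, pericentromeric 2R at 22.1 and the pericentromeric X, with 1 locus, at 0.938.

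In males, RNA from these intervals was more often above than below the HWT level in H4K16R discs. The median log2 fold change was 0.56 and 302 of 427 intervals (70.7%) were above 0, against 0.02 and 5756 of 11060 among male entries that overlapped a gene. How intervals came to be listed is not stated, and whether listing depended on RNA in H4K16R males was not tested. The authors' adjusted p called 35 male intervals higher (8.20%) and 6 lower (1.41%), where the whole male table had 5.35% of its 11505 entries higher and 10.3% lower. On chromosomes 2 and 3 alone, 6.44% of 388 male intervals were called higher and 0.773% lower. Of the 9084 male entries there that overlapped a gene, 6.08% were called higher and 3.50% lower. The median log2 fold changes there were 0.56 and 0.07. On X, 44.9% of the 1880 male entries overlapping a gene were called lower. In females the median was 0.10, 165 of 302 were above 0 (54.6%), and 3 intervals were called higher (0.993%) and 0 lower, against 0.362% and 0.613% of all 10775 female entries. At an unadjusted p under 0.05, recovered from the adjusted p, there were 91 male and 28 female intervals, which is 21.3% and 9.27%, against 26.8% of all male and 11.6% of all female entries. At that looser threshold the intervals thus passed less often than the whole table in both sexes. On chromosomes 2 and 3 alone the male shares were close, 19.6% of intervals and 20.8% of entries overlapping a gene. The female counts are too few to set apart from the background.

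These intervals were measured less precisely than genes, by a standard error recovered from each fold change. The standard error recovered from the fold change and its p had a median of 0.92 in the male and 0.88 in the female intervals, on the log2 scale, and of 0.17 in entries overlapping a gene in either sex. An absolute log2 fold change of at least 1 occurred in 43.6% of male and 28.1% of female intervals, against 10.5% and 5.88% of gene entries. In the male intervals at or below the median standard error, the median log2 fold change was 0.30 and 68.2% were above 0; in those above it the median was 0.94 and 73.2% were above 0. Short entries that did overlap a gene, those under 500 bases, had a male median of -0.04 with 46.6% above 0 (n = 1012). Their median standard error was 0.46, below the 0.92 of the male intervals, and 15.8% had an absolute log2 fold change of at least 1. They were therefore alike in length but not in precision. Because the standard error was recovered from the fold change, a larger change gives a larger standard error at the same p. The split at its median thus partly sorts by the size of the change itself and cannot decide the part of precision. That part in the shift of the medians was not tested.

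**Figure D2:**
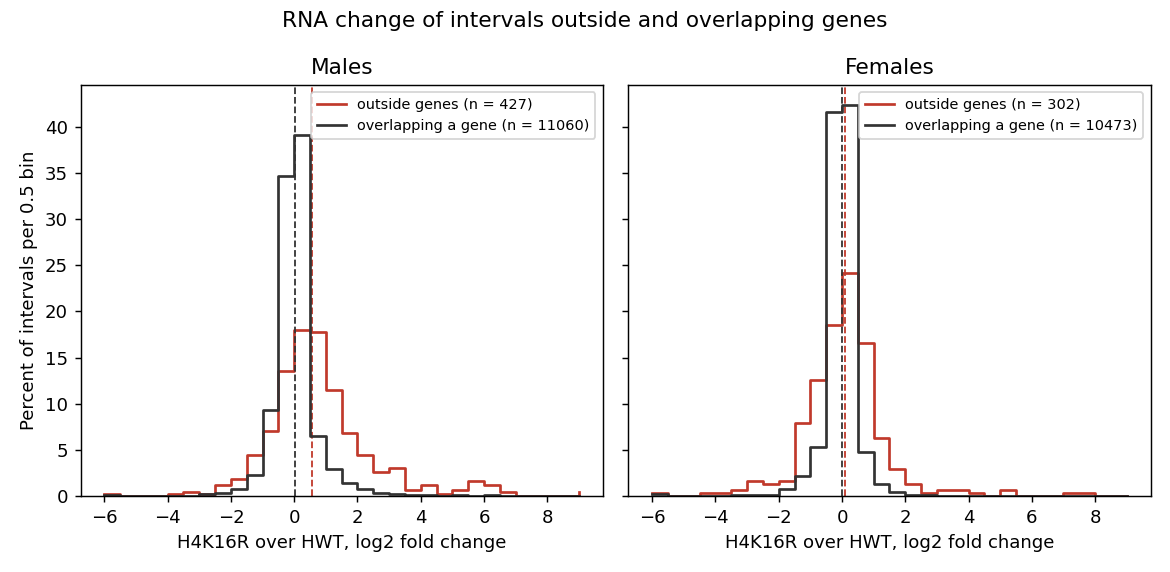
Share of intervals (y axis, percent per bin of 0.5) by log2 fold change of RNA, H4K16R over HWT (x axis; values past the ends are in the end bins), for intervals outside genes (red) and entries overlapping a gene (black), males left and females right; dashed lines are medians. The male red median lies at 0.56 and the black one at 0.02, while the female medians lie at 0.10 and -0.00402.

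The male calls lay mostly far from genes. Of 166 male intervals 5 kb or more from any listed gene, 29 were called higher and 2 lower, and their median log2 fold change was 0.99. Between 1 and 5 kb, 5 of 180 were called higher and 0 lower (median 0.36). Under 1 kb, 1 of 81 was called higher and 4 lower (median 0.25). The female medians in the same order of distance, far to near, were 0.07, 0.14 and 0.00211, and the 3 female calls were 5 kb or more from a gene. Close to genes the male intervals went with their neighbours: over the 64 intervals under 1 kb from a gene with its own entry, the Spearman correlation with that gene's log2 fold change was 0.44, against 0.22 (n = 147) at 1 to 5 kb and 0.13 (n = 106) beyond. In females the correlation under 1 kb was 0.03 (n = 50). Interval and gene come from the same libraries, and several intervals share a gene, so these are descriptions. The male intervals under 1 kb include long X intervals called lower, some of them beside genes also called lower. The correlation was not recomputed without X.

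**Figure D3:**
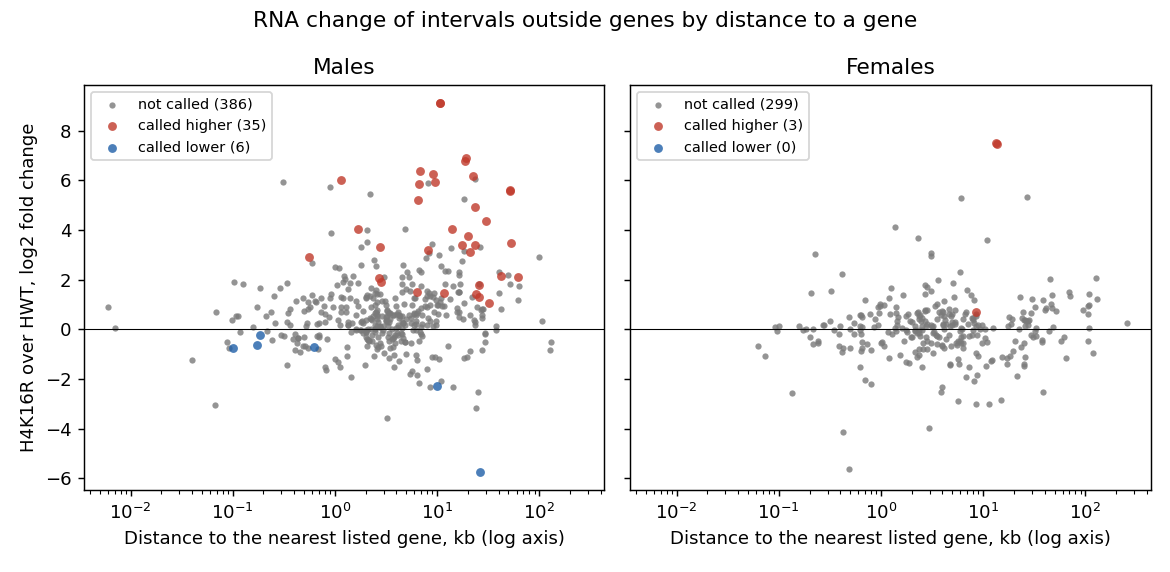
Log2 fold change of each interval outside genes, H4K16R over HWT (y axis), against its distance to the nearest listed gene in kb (x axis, log scale), males left and females right; red was called higher, blue lower and grey not called. In males 29 of the 35 red points lie at 5 kb or more, and 4 of the 6 blue points under 1 kb.

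Many of the male calls lay at chromosome ends. Within 150 kb of the telomere-side ends of the assembled chromosomes, a distance chosen after the values were seen, 14 of 27 male intervals were called higher and 0 lower, 25 were above 0 and the median log2 fold change was 1.45. The 51 male entries that overlapped a gene in the same stretches had a median of -0.01, with 3 called higher and 5 lower. In females, 0 of 22 intervals there were called, 15 were above 0 and the median was 0.38, with 3 at an unadjusted p under 0.05. Fly telomeres are kept up by arrays of retrotransposons instead of telomerase, with further repeats next to them. The calls lay at the ends of X, 4 and 2R. At the end of 2L, 4 male intervals had 0 calls, and 3L and 3R had no interval within that distance. Joined into loci, the 14 calls come down to 7, fewer than the 10 pericentromeric loci called higher. Without the chromosome ends the male table keeps 21 calls higher and 6 lower of 400 intervals, with a median of 0.53.

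At the tip of X, all 6 male intervals were above 0 and 5 were called. The interval X:53495-55028 had a log2 fold change of 5.62 in the authors' deposited table (adjusted p = 9.3e-11, SE 0.74), the smallest adjusted p of all 729 intervals; the nested X:53664-54893 had 5.58 there. The longest locus followed, with 1.52 for X:55185-116152 (adjusted p = 8.14e-07) and 3.49 for X:61223-69738 inside it (adjusted p = 0.00198) in the authors' deposited table. Overlapping intervals share reads, so these are not separate measurements. The genes that begin just inside went the other way: 8 entries that overlapped a gene within 150 kb of that end had a median of -0.48, 0 were above 0 and 3 were called lower. That is near the median of -0.43 over all 1880 male X entries that overlapped a gene. In females the overlapping interval X:53685-54975 had 0.74 in the authors' deposited table (adjusted p = 0.470).

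At the end of chromosome 4, past Cadps, the gene of a protein that primes secretory vesicles for release, all 10 male intervals were above 0 and 5 were called. They ran from 4:1278585-1278751, with 6.38 in the authors' deposited table (adjusted p = 2.85e-06), to 4:1314437-1320245, with 2.15 (adjusted p = 1.11e-07). Between them the authors' deposited table gives the 18841-base interval 4:1283429-1302269, one of the 3 longest loci, 1.45 (adjusted p = 1.67e-05) and the 12882-base interval 4:1303794-1316675 1.07 (adjusted p = 0.00145). For the nearly coincident female interval 4:1303808-1316795 the authors' deposited table has -0.05 (adjusted p = 0.966). Cadps itself was called in opposite directions, with -0.75 in males (adjusted p = 4.10e-04) and 0.89 in females (adjusted p = 0.00766) in the authors' deposited tables.

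At the end of 2R, beyond CG9380, all 7 male intervals were above 0 and 4 were called. The interval 2R:25280993-25286400, which ends 537 bases from the end of the assembled arm, had 1.79 in the authors' deposited table (adjusted p = 8e-08), and 2R:25285570-25286263 inside it had 4.37 (adjusted p = 1.12e-06). The authors' deposited table gives the short interval 2R:25269229-25269401 a value of 4.05 (adjusted p = 0.00757). All 5 female intervals there were also above 0, from 0.34 to 4.13, and none passed the threshold in the authors' deposited table. CG9380 had 0.17 in males and 0.02 in females (adjusted p = 0.342 and 0.974) by the authors' deposited tables.

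**Figure D4:**
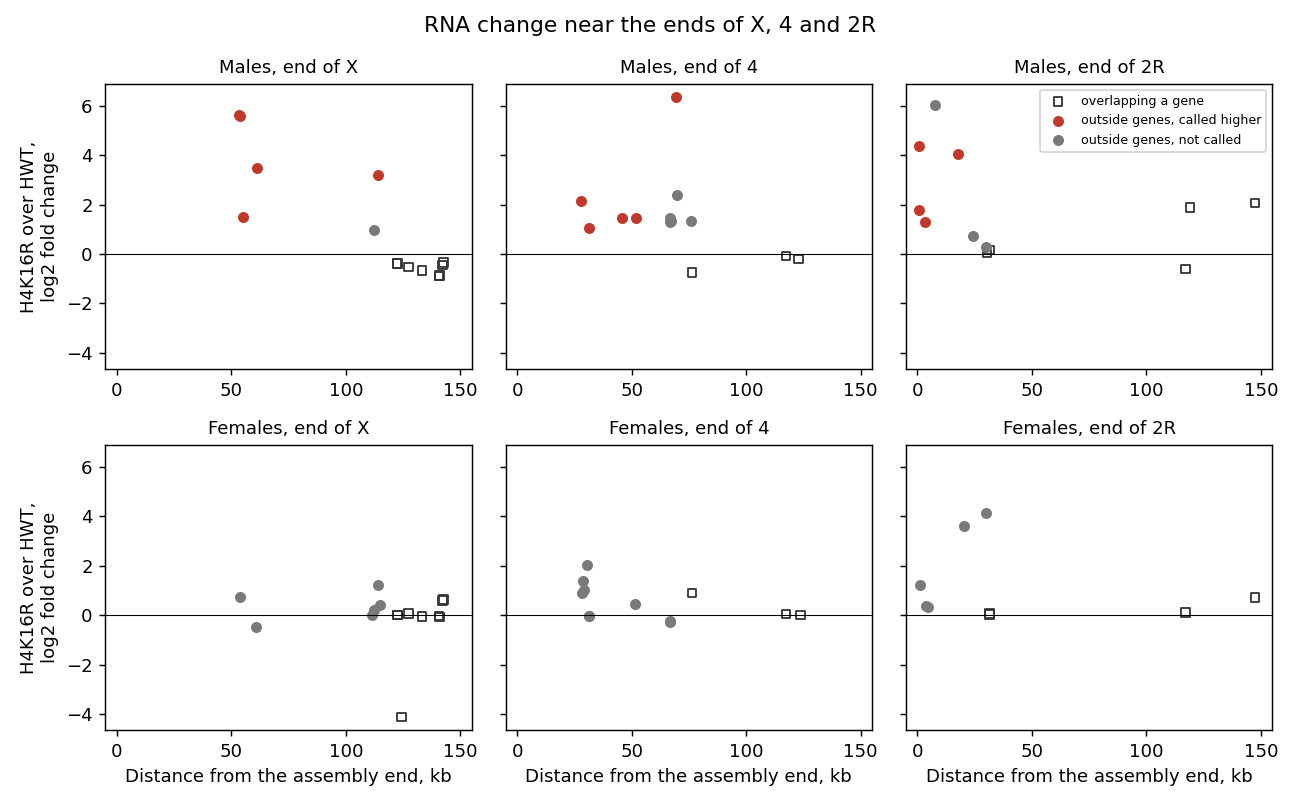
Log2 fold change, H4K16R over HWT (y axis), against distance from the telomere-side end of the assembly in kb (x axis) for X, 4 and 2R, males above and females below; red circles are intervals outside genes called higher, grey circles intervals not called and open squares entries overlapping a gene. The 14 red points are all in males, and the open squares at the male X tip lie below 0.

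Beside the histone gene cluster, which is deleted in both genotypes, the nearest male intervals on the centromere side were higher in H4K16R. The cluster, with 111 listed histone genes, spans 2L:21416953-21541681. Beyond it, in a stretch chosen after its values were seen, the first 7 male intervals, between 21554357 and 21653095, were all above 0 (median 4.02). Of them 5 (71.4%), in 4 loci, were called higher, against 5.35% of the whole male table. The first, 2L:21554357-21554714 with the nested 21554357-21554709, had one and the same value of 9.10 in the authors' deposited table (adjusted p = 2.85e-06), so it counts as 1 measurement. The others lay next to Ac3, an adenylyl cyclase gene, at 2L:21648516-21649376 with 2.89 (adjusted p = 0.00426), 2L:21649637-21650504 with 4.05 (adjusted p = 2.32e-04) and 2L:21650654-21652709 with 2.09 (adjusted p = 6.52e-04) in the authors' deposited table. No male entry was matched to Ac3 itself, so its male change is not known here. In females it had -1.07 in the authors' deposited table (adjusted p = 0.0531). On the telomere side, the locus nearest to the cluster, 2L:21413303-21413652 at 3.30 kb, had -0.29 in the authors' deposited table (adjusted p = 0.880), and 0 of 5 male intervals there were called. Females had 2 intervals on the centromere side, with -2.03 and 0.42 in the authors' deposited table, neither called.

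In the pericentromere, 10 male intervals were called higher and 2 lower of 139, and the median of all was 0.32, against 0.01 for 251 entries there that overlapped a gene. Calls were not more frequent than among those gene entries, of which 26 (10.4%) were called higher and 33 (13.1%) lower, against 7.19% and 1.44% of the intervals. Of the 10, 6 stood together at 2R:4151217-4157930, about 20 kb from CG17683, where 7 successive male intervals all were above 0. In the authors' deposited table the highest were 2R:4152829-4153094 with 6.92 (adjusted p = 0.00372) and 2R:4152345-4152668 with 6.80 (adjusted p = 0.00609); the rest had 3.12 to 4.93, and the one that was not called had 3.15 (adjusted p = 0.124). The female table has no interval outside genes in that stretch. Elsewhere the highest values of the authors' deposited table were at 3L:25179467-25179589 with 6.16 (adjusted p = 0.0281) and 2L:22923305-22923659, 1.14 kb from lt, with 6.02 (adjusted p = 0.0450). The lower ones in the authors' deposited table were 3R:3820344-3820454 with -5.74, just under the threshold (adjusted p = 0.0498, SE 2.15), and 2L:22566285-22567384 with -2.27 (adjusted p = 0.00123).

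The female calls were all in pericentromeric 2R. In the authors' deposited tables, overlapping intervals at 2R:1632005-1632390 and 2R:1632315-1632369 had 7.51 and 7.45 (adjusted p = 0.00757 and 0.00831), and the overlapping male interval 2R:1632273-1632387 had 3.29 (adjusted p = 0.0578). A longer one of 7721 bases had 0.71 in the authors' deposited table (adjusted p = 3.15e-04) and 0.34 for its male counterpart (adjusted p = 0.0733). No locus was called in both sexes at the threshold. The 91 female pericentromeric intervals had a median of -0.02.

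On the rest of the arms, 6 male intervals were called higher. They included the neighbours 3R:4113393-4113683 with 6.27 (adjusted p = 0.0308) and 3R:4110932-4111375 with 5.87 (adjusted p = 2.02e-04) in the authors' deposited table, both within 10 kb of CG42402, whose own entry had 0.34 (adjusted p = 0.611), and close to the border of the 3R block. The interval 2L:18750436-18751269, 9629 bases from CG15167, had 5.94 in the authors' deposited table (adjusted p = 1.96e-04). These changes are large, and the standard errors, 1.28 to 2.18, are large too.

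On X away from the tip, male intervals were mostly lower, as male X-linked genes were. Of 15 such male intervals 1 was above 0, 3 were called lower and 0 higher, and the median was -0.74; the 1880 X entries that overlapped a gene had a male median of -0.43 with 14.3% above 0. The called intervals were 4763 to 9785 bases long, lay 101 to 620 bases from a gene, and had -0.65, -0.70 and -0.74 in the authors' deposited table (adjusted p = 1.65e-05, 6.17e-06 and 2.15e-05). All 3 belong to 9 intervals per table whose ends lay within 5 bases of an entry of the other sex. Such shared ends were found in 75.7% of male entries that overlapped a gene but in 2.11% of the male intervals outside genes, and these 9 also had small standard errors (median 0.14) and a median length of 2679 bases. The 29548-base interval on 2R is among them as well, with -0.22 in the authors' deposited male table (adjusted p = 0.0451). Without these 9, the male calls are 35 higher and 2 lower, and 1 of the 11 remaining X intervals away from the tip was above 0 (median -0.84, 0 called). In females, 8 of 18 X intervals away from the tip were above 0 (median -0.04).

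The loci were not spread evenly along the arms. The window with the most loci, 3L:5800001-5900000, held 39, packed into 45.4 kb between vn, which encodes a ligand of the epidermal growth factor receptor, and PolE2, a subunit of DNA polymerase epsilon. The 36 male intervals there had a median of 0.65, from -1.50 to 4.06, with 26 above 0; the 19 female ones had -0.15. The entry of vn itself had 0.03 in males and 0.18 in females in the authors' deposited tables (adjusted p = 0.870 and 0.495). In 3R:29300001-29400000, which held 32 loci near Ptp99A, a receptor tyrosine phosphatase gene, and Cnx99A, the gene of a chaperone of the endoplasmic reticulum, all 30 male intervals were above 0, from 0.14 to 3.09 with a median of 1.24; 9 had an unadjusted p under 0.05 and the smallest adjusted p in the authors' deposited table was 0.0533. The 7 female intervals there had a median of 0.14, with 4 above 0. The third window, 2R:6200001-6300000, held 14 loci near bin3 and Pld and was mostly a female one, with 14 female intervals (median -0.30) and 2 male (median 0.29). No interval of these 3 windows was called in either sex. Intervals this close may be pieces of one transcript, and whether they are was not tested.

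Only part of the loci appeared in both tables. Of 477 loci, 379 had a male and 261 a female interval, and 163 had both, which is 43.0% of the male and 62.5% of the female loci. Over these 163 the male and female fold changes correlated at 0.09 (Spearman) and 0.19 (Pearson), and 84 had the same sign; this describes loci from separate male and female libraries. The median log2 fold change of these 163 loci was 0.24 in males and 0.00291 in females. Of the 33 male loci with a call, 20 had no female interval, as was so for 216 of all 379 male loci. The male minus female difference was tested by a z test, with Benjamini-Hochberg adjustment over all matched intervals. Among 8264 identical intervals 6.32% were called and, of the 6 that lie outside genes, 1: a 4763-base interval on X, with a difference of -0.67 (SE 0.16, adjusted p = 0.00178), one of the 3 X intervals described above. Matched by an overlap of at least 50% of each, 8.04% of 9806 pairs were called, and 5 of 106 pairs outside genes. The largest difference of the 5 was at the tip of X, where the authors' deposited tables give X:53664-54893 5.58 in males and its partner 0.74 in females, a difference of 4.84 (SE 0.84, adjusted p = 6.98e-06). At the end of chromosome 4 the difference was 1.12 (SE 0.37, adjusted p = 0.0356), from 1.07 in males and -0.05 in females. At the end of 2R it was 0.95 (SE 0.35) and did not pass (adjusted p = 0.0699). The other 3 called pairs were the long X intervals, lower in males by 0.60 to 0.68 on the log2 scale. Over all 106 pairs the median difference was 0.08, and 55 were higher in males.

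Replication timing was read at each interval from the 100 kb window centred nearest to it, as log2 of S-phase over G1 coverage, where higher is earlier. Each group has 1 deposited value per window, so differences carry no error, and neighbouring intervals share a window. Over all places, the intervals' median HWT timing was 0.02 in males and 0.03 in females, against 0.06 and 0.04 for entries overlapping a gene. Within the arms and within the pericentromere this gap did not remain. On the arms the medians were 0.0597 for male intervals and 0.0606 for male gene entries, and 0.0431 and 0.0376 in females. In the pericentromere they were -0.0541 and -0.0795 in males and -0.0253 and -0.0290 in females. On chromosome 4 the male medians were -0.0873 for 18 intervals and 0.0113 for gene entries, and the female ones 0.0492 and 0.0499. On X they were 0.0436 and 0.0736 in males and -0.0453 and 0.0232 in females. The latest 10% of all windows held 4.22% of male and 7.95% of female intervals, against 0.949% and 0.773% of gene entries. In the pericentromere alone the shares were 8.63% of male and 25.3% of female intervals, against 28.7% and 23.5% of gene entries. The intervals' pericentromeric median was -0.07 in H4K16R and -0.05 in HWT males, and -0.06 in H4K16R and -0.03 in HWT females.

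The median H4K16R minus HWT difference in timing over the intervals was -0.00424 in males and -0.000232 in females; the male value turned to 0.00517 once each profile was centred on its median over the arms. For entries overlapping a gene it was -0.00799 and 0.00753. The 35 male intervals called higher had a median HWT timing of -0.10 and a median timing difference of 0.04. Of them, 5 lay in the latest 10% of windows and 14 at chromosome ends, where neighbouring intervals share windows. These medians were not recomputed without the ends. For intervals at chromosome ends the median difference was 0.0562 in males, towards earlier, and -0.0503 in females, towards later. For the 51 entries per sex that overlapped a gene in the same stretches it was 0.0128 in males and 0.0461 in females, towards earlier in both. For intervals on X away from the tip it was -0.0587 in males and -0.00980 in females. The male window at 2R:25280993-25286400 had -0.07 in H4K16R and -0.19 in HWT, that at X:53495-55028 -0.14 in H4K16R and -0.24 in HWT, and that at 4:1283429-1302269 -0.04 in H4K16R and -0.10 in HWT. In females, the window at 2R:25281006-25283223 had -0.00478 in H4K16R and 0.15 in HWT, and that at 4:1303808-1316795 had -0.08 in H4K16R and 0.02 in HWT. By their medians the other female ends did not go that way. The median difference was 0.00860 over 6 intervals at the end of X and 0.0598 over 2 at that of 2L. The first quartile at the end of X was -0.0469, so some intervals there did go later. The HWT values of females at the ends differed between the authors' 2 deposited tables that hold them: the other gave 0.02 for the 2R window and -0.03 for that on 4. The 2 deposited HWT values thus lay up to 0.13 apart at the same window, which is of the order of the female differences there. In H3K9R females the median difference from HWT, both from that other table, was 0.00258 over all 302 intervals and 0.05 over the 22 at chromosome ends, and in yw females the median timing over all intervals was -0.00358.

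**Figure D5:**
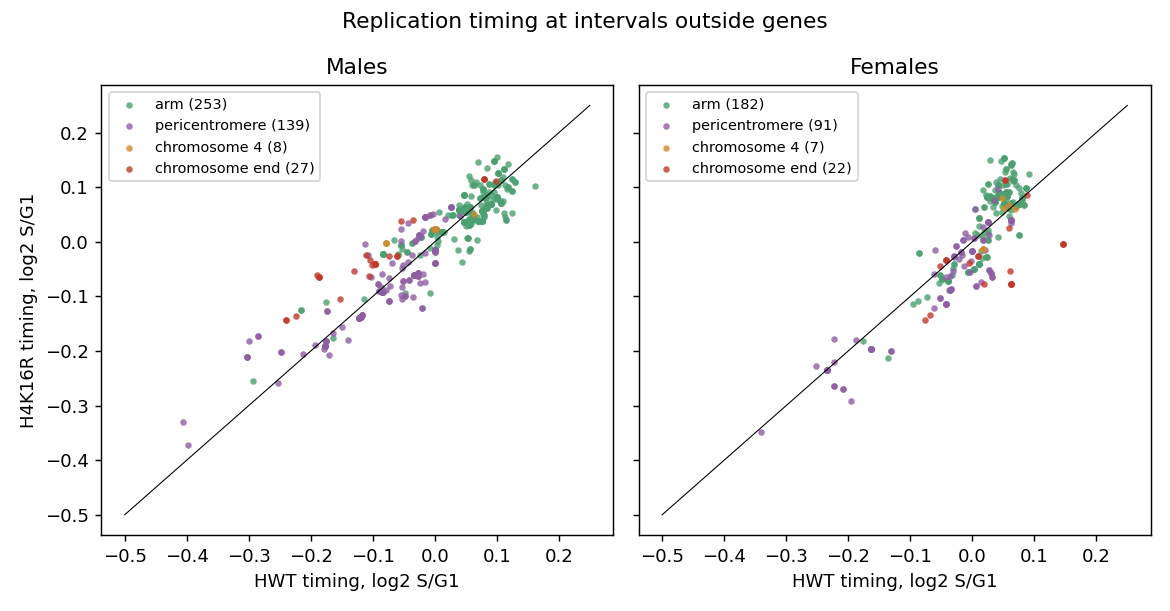
Timing in H4K16R (y axis) against HWT (x axis), both log2 S/G1 with higher values earlier, at each interval outside genes, males left and females right; the line marks equal timing, and colours give the place (arm, pericentromere, chromosome 4 or within 150 kb of a chromosome end). Male chromosome-end points, in red, lie mostly above the line, and female ones are split, with most of those of 2R and 4, and some of X, below it.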

How the data were processed

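RNA sequencing (12 libraries) and Repli-seq (18 libraries) were used as the authors' comparisons and profiles; values per library were not used here. Per the labels, RNA libraries were stranded and depleted of ribosomal RNA, with ERCC spike-ins. The submitters' processing notes name dm6 as the build and TopHat, Cufflinks 2.2.1, edgeR, limma, Bowtie2 2.3.2, SAMtools 1.6 and bedtools as tools, and give no role for any of them. The RNA tables, 1 per sex, give for each interval the log2 fold change and the adjusted p-value computed by the authors, per the file headers; the adjusted p-values printed are those of the authors, from a table named for edgeR. The numerator is not given and was read as H4K16R over HWT; Benjamini-Hochberg adjustment was assumed. How the intervals were defined is not stated either. For timing, the authors deposited a log2 value, or in the female H4K16R table as a linear S/G1 ratio, of which log2 was taken, in 100 kb windows that step by 10 kb. The base of the log2 values is not stated; against the ratio table the slope of HWT windows was 1.01 (SD ratio 1.06), where natural logs would give 1.44.

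Intervals were compared with 17673 RefSeq genes of Release 6, and overlapping ones joined into loci. Unadjusted p-values were recovered by multiplying each adjusted p by its rank and dividing by the count of entries. Assuming a normal statistic, this p and the fold change gave a standard error. Male minus female differences were tested with a two-sided z test with Benjamini-Hochberg adjustment. On simulated differences among 8264 identical intervals, this test called 53.9% of differences of 1 and 74.9% of differences of 2 on the log2 scale; most of those intervals are genes, and power for the noisier intervals outside them is lower. Members and lists were chosen with earlier results of these data known. Loci named are, per sex, the 8 highest and 8 lowest called, those with a called sex difference, the 3 longest, the one nearest the histone cluster and the 3 windows of 100 kb richest in loci; groups at chromosome ends, beside the histone cluster and at 2R:4151217-4157930 were chosen after their values were seen. Intervals with shared ends, and the 7721-base interval on 2R, are given without coordinates. Sequence content was not analysed here. The scripts ran in Python 3.11.15 with scipy 1.17.1, pandas 2.3.3, numpy 2.4.6 and, for the plots, matplotlib 3.10.9.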

Additional observations from a re-analysis of the deposited data

Results flagged for a closer look

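Matched pairs of male and female intervals were singled out where the H4K16R effect differed between the sexes by the z test of the difference. With identical intervals this was 1 interval on X (male minus female -0.67, adjusted p = 0.00178). With intervals that overlap by at least 50% of each, 4 further pairs were called: 2 other long X intervals (-0.68 and -0.60), the tip of X (4.84) and the end of chromosome 4 (1.12). The 3 long X intervals were lower in males and the 2 intervals at chromosome ends higher, each measured in 3 libraries per genotype and sex, whose single values are not known here. The part of any technical difference between the male and female libraries was not tested.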

How the results depend on the processing

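No paired analysis was possible because the deposited tables hold no values per library, and for the same reason no replicate could be left out. Counting mobile elements as annotated was not run, since the gene table lists none; pseudogenes were already counted as genes. In males, the 35 calls higher became 12 with Holm adjustment, 17 among intervals with a standard error at or below the median and 21 without the chromosome ends. The 6 male calls lower became 3 with Holm adjustment and 2 with an absolute log2 fold change of at least 1, at 1 kb or more from a gene, or without intervals of shared ends. The 3 female calls became 1 with Holm adjustment or a low standard error. The 14 calls at chromosome ends became 7 within 50 kb or counted as loci, and 9 without chromosome 4 or without X; their median stayed between 1.31 and 1.52. With the block boundaries moved 1 Mb towards the telomere the pericentromeric share was 40.3% in males and 40.4% in females, and towards the centromere 20.6% and 20.5%. Joined into loci, the median length was 353 bases in males and 394 in females. The median HWT timing on the arms alone was 0.0597 in males and 0.0431 in females, and it was 0.0400 with the female HWT values of the H3K9R table. Centring each profile turned the male median timing difference to 0.00517. The male median log2 fold change of autosomal intervals was 0.68 on the arms alone, and that of the 21 X intervals changed from -0.33 to 0.44 at 1 kb or more from a gene. The count of sex differences rose from 1 to 5 with matching by overlap. Of 96 recomputed values, 71 stayed within 1.5 times the count or within the 95% interval of the median or share. The male X median that changed sign is among the 71, since 0.44 lay within its 95% interval. So are the female lower calls, which were 0 in every setting. Alternatives on shared ends, standard error and chromosome ends were chosen after seeing the data. Large standard errors limit what these short intervals can show, and their depth is unknown.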
